A study of Mus musculus with 12 samples.

Results

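Platelet-derived growth factor (PDGF) transcripts were followed in bone marrow mesenchymal stem cells (MSCs) of C57BL/6 mice. The genes described here are the 4 ligand genes Pdgfa, Pdgfb, Pdgfc and Pdgfd, the receptor genes Pdgfra and Pdgfrb, and the receptor-like gene Pdgfrl, taken by name as 7 of the 55401 genes in the deposited table. The control MSCs were untreated, and the other 3 groups received TGF-β1 at 5 ng/mL, alone, with the supernatant of monocytic myeloid-derived suppressor cells (M-MDSCs), or with the supernatant of granulocytic ones (G-MDSCs). Each group had 3 mRNA libraries. The MSCs of every group were bought from a single supplier. The MDSCs were raised from mouse bone marrow with GM-CSF and IL-6 and sorted on CD11b, Ly6G and Ly6C, and neither supernatant was given without TGF-β1, so a supernatant effect can be read only on top of TGF-β1. The sources used here do not state whether libraries of a group came from separate cultures. The p-values therefore weigh group differences against the spread between these libraries, which may be technical.

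PDGFs are secreted as dimers that draw together and activate tyrosine kinase receptors on mesenchymal cells, and they are known as mitogens and attractants for fibroblasts, pericytes and smooth muscle cells. PDGF-A and PDGF-C act through receptor alpha (Pdgfra), PDGF-D through receptor beta (Pdgfrb), and PDGF-B through both. PDGF-A and PDGF-B are trimmed inside the cell by furin-like proteases, whereas PDGF-C and PDGF-D are secreted with a blocking CUB domain that proteases such as the plasminogen activators remove outside the cell. Receptor alpha marks stromal progenitors of bone marrow together with Sca-1, and receptor beta is the receptor of pericytes and of many activated myofibroblasts.

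The libraries held 73977669 to 84565450 counts. With TGF-β1, all 10 myofibroblast markers rose, where 16.1% of all genes did, among them Acta2 (smooth muscle actin) by 0.53 ± 0.05, Col1a1 (collagen I) by 1.11 ± 0.06 and Ccn2 (a matricellular TGF-β target) by 2.53 ± 0.06 on the log2 scale (± SE). Of 7 MSC markers, 5 to 6 had a mean FPKM of at least 1 in each group. Of the 6 tested, Cd44 (0.48), Itgb1 (0.66) and Nt5e (1.35) rose with TGF-β1 on the log2 scale, while Thy1 (-0.99), Vcam1 (-1.26) and Ly6a (-3.86) fell. Nt5e and the myofibroblast marker Postn, with control means of 0.407 and 0.0974 FPKM, entered the test through the treated groups. Ly6a, which encodes Sca-1, went from 245.1 in the controls to 16.2 with TGF-β1 and stood at 92.5 with the M-MDSC supernatant and 66.9 with the G-MDSC supernatant. None of 7 endothelial or 6 platelet markers reached a mean of 1 in any group, and the pan-leukocyte gene Ptprc had a mean of at most 0.00817. The sum of 8 kidney tubule markers was 0.0484 to 0.201 FPKM without supernatant, but 68.6 to 80.0 with G-MDSC supernatant and 32.9 to 103.6 with M-MDSC supernatant, led by Kap and Gpx3, and Kap had a count of 0 in every library without supernatant. The sum of 13 myeloid markers was 28.3 to 30.1 in the controls and 14.7 to 16.2 with TGF-β1. It was 22.1 to 27.9 with added M-MDSC supernatant and 28.1 to 30.1 with added G-MDSC supernatant, and most of it was Cd14. In the same order of groups, Lyz2 had means of 0.115, 0.0573, 1.54 and 1.87. S100a9 had means of 0.576 (SD 0.369) with M-MDSC and 1.13 (SD 1.96) with G-MDSC supernatant, against 0.0001 in both other groups. Ly6g (1.83) and Ly6c2 (1.71) had their highest means in the controls. The kidney transcripts and Lyz2 separated the supernatant libraries from the others, and their part in the supernatant results below was not tested.

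With TGF-β1 alone, the MSCs made more transcript of 3 of the 4 ligands and less of receptor alpha. Pdgfc rose 3.81-fold and Pdgfa 3.25-fold, Pdgfb rose 1.59-fold from a low level, and Pdgfd fell 1.92-fold. Pdgfra fell 2.71-fold while Pdgfrb rose 1.44-fold, and Pdgfrl fell 1.40-fold. All 7 differences passed the test, in a comparison where 34% of all genes tested did. Set against TGF-β1 alone, the supernatants moved only receptor genes past the threshold by edgeR: Pdgfrb fell with either supernatant, and Pdgfra rose with the G-MDSC supernatant. Of all genes tested, 4.78% passed with the M-MDSC and 5.56% with the G-MDSC supernatant.

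**Figure D1:**
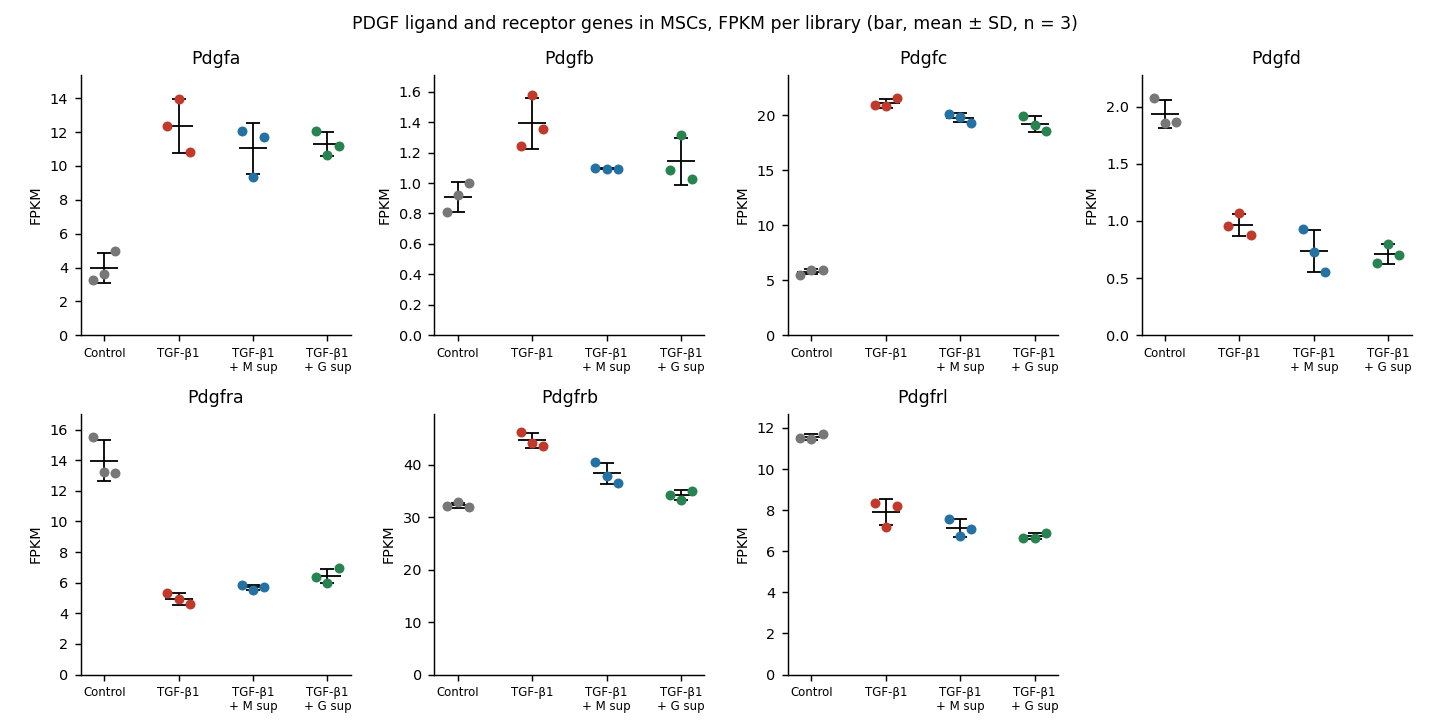
FPKM of the 7 PDGF genes in each library (points), with the mean and SD of 3 libraries per group (bars), in 7 panels with axes from 0; M sup and G sup stand for the M-MDSC and G-MDSC supernatants. Pdgfa and Pdgfc sit in a low control group and 3 high groups, Pdgfra shows the opposite, and Pdgfrb steps up from 32.3 to 44.7 with TGF-β1 and down to 38.4 and 34.2 with the M-MDSC and G-MDSC supernatants.

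FPKM, the fragments per length of exon and per sequencing depth, allows genes of different length to be compared, and all levels below are in this unit. A gene was called where the edgeR quasi-likelihood F test, fitted to the counts of all 12 libraries, gave an adjusted p under 0.05 over the 12016 genes with an FPKM of at least 1 in 3 or more libraries. All 7 PDGF genes passed that filter, but Pdgfb reached 1 in none of the control libraries and Pdgfd in only 4 of the 12, 3 of them controls. These 2 genes entered the test through the groups where they were high, so the count of called PDGF genes is a description.

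Sequence before the RefSeq start sites (GRCm38.p6) is shown for Pdgfc, whose rise was the largest of the 7, Pdgfra, whose fall was the largest, and Pdgfd, the ligand gene that fell. Capitals mark matches, on either strand, to CAGAC, a short site bound by the SMAD factors of TGF-β signaling, to CATTCC, a site of TEAD factors, and to TATAAA, the TATA box. All are read 5′ to 3′ on the strand of the gene, from chr3:81036166-81036415 (plus strand), chr5:75152001-75152250 (plus strand) and chr9:6168236-6168485 (plus strand).
Pdgfc: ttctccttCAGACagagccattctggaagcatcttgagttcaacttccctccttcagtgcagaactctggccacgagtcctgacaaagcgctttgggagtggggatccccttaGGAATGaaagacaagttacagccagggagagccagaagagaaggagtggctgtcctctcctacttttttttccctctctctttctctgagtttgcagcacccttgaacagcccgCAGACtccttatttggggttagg
Pdgfra: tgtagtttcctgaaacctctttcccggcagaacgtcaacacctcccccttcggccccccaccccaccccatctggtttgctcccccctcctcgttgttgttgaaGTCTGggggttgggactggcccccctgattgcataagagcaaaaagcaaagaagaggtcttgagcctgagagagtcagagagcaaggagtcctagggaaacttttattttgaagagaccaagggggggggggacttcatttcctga
Pdgfd: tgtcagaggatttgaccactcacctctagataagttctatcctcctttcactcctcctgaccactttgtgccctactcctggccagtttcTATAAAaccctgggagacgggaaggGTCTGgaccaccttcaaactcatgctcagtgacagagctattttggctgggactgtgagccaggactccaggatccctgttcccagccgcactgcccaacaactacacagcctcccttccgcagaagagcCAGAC
Matches were counted in windows of 300 bases, 250 before the start and 50 after it. CAGAC occurred 2 times in Pdgfc and 0 times in Pdgfa, which rose. It occurred 2 times in Pdgfd and 1 time in Pdgfra, which fell, and 49.6% of the 32851 RefSeq windows held it. TATAAA occurred in the Pdgfd window alone of the 4 members with a window, at position -160 from the start, against 13.6% of all windows. CATTCC occurred 2 times in the window of Pdgfc, of which 1 is printed, against 14.7% of all windows. GGCGCC, a GC-rich SMAD site, occurred in the Pdgfc window beyond the printed bases (11.9% of all windows), and GGGCGG, the GC box, 2 times in that of Pdgfa (35.7%). TGANTCA, the AP-1 site, was in none of the 4 (7.81% of all windows). These are matches of letters, not sites of binding.

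Pdgfc, on the plus strand of chromosome 3 (chr3:81036416-81214040, GRCm38), encodes the PDGF-C chain and was the most abundant ligand transcript in every group. It stood at 5.50, 5.89 and 5.89 in the controls, at 20.9, 20.8 and 21.5 with TGF-β1, at 20.1, 19.8 and 19.3 with added M-MDSC supernatant, and at 19.9, 19.1 and 18.5 with added G-MDSC supernatant. The control libraries lay far below all others, and the 3 treated groups lay within a narrow band. The rise with TGF-β1 was 1.93 ± 0.04 on the log2 scale (edgeR adjusted p = 7.24e-10). Pdgfc was lower than with TGF-β1 alone in all 3 libraries of either supernatant, by values that did not pass the threshold (M-MDSC -0.12 ± 0.04, edgeR adjusted p = 0.188, and G-MDSC -0.16 ± 0.04, edgeR adjusted p = 0.0563). With DESeq2, which called 8.24% of all genes in that comparison, the second of these passed (adjusted p = 0.0311).

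Pdgfa, on the minus strand of chromosome 5 (chr5:138976014-138997370), encodes the PDGF-A chain. Its levels were 3.28, 3.62 and 4.99 in the controls, 12.4, 14.0 and 10.8 with TGF-β1, 12.1, 9.32 and 11.7 with added M-MDSC supernatant, and 12.1, 10.6 and 11.2 with added G-MDSC supernatant. The 9 treated libraries overlapped freely and all lay above the controls. The log2 rise with TGF-β1 was 1.70 ± 0.16 (edgeR adjusted p = 1.42e-05), and neither supernatant moved it past the threshold (-0.19 ± 0.16 and -0.16 ± 0.16). The antisense gene 6330403L08Rik overlaps Pdgfa, and the sources used here do not state whether counting used strand, so reads of the pair cannot be told apart. It was listed at 0.961 to 1.08 in the controls and 1.34 to 1.83 with TGF-β1, well under Pdgfa itself.

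Pdgfb, on the minus strand of chromosome 15 (chr15:79995874-80014977), encodes the PDGF-B chain, the ligand of both receptors. It was the lowest of the 7 genes in the controls, at 0.808, 0.919 and 0.998, and stood at 1.25, 1.58 and 1.35 with TGF-β1. The rise was 0.67 ± 0.13 on the log2 scale (edgeR adjusted p = 0.00236). With M-MDSC supernatant it was 1.10, 1.09 and 1.09, and with that of G-MDSCs 1.08, 1.31 and 1.03. Both means lay between those of the other 2 groups, but the G-MDSC supernatant libraries overlapped those of TGF-β1 alone. Those values differed past the threshold neither from TGF-β1 alone (edgeR adjusted p = 0.170 and 0.240) nor from the controls (edgeR adjusted p = 0.106 and 0.0578). The last of these passed with DESeq2 (adjusted p = 0.0448) and without G-MDSC supernatant replicate 3 (edgeR adjusted p = 0.0466).

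Pdgfd, on the plus strand of chromosome 9 (chr9:6168584-6378845), encodes the PDGF-D chain and was the only ligand gene to fall. It went from 2.08, 1.86 and 1.87 in the controls to 0.953, 1.07 and 0.879 with TGF-β1, a log2 change of -0.94 ± 0.18 (edgeR adjusted p = 0.00198). It stood at 0.927, 0.727 and 0.556 with M-MDSC supernatant, overlapping TGF-β1 alone, and at 0.629, 0.800 and 0.703 with that of G-MDSCs, without overlap. The differences from TGF-β1 alone, -0.41 ± 0.18 and -0.47 ± 0.18, did not pass the threshold (edgeR adjusted p = 0.279 and 0.199). Both means lay farther from the controls than the mean of TGF-β1 alone.

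Pdgfra, on the plus strand of chromosome 5 (chr5:75152292-75198215), encodes receptor alpha. It was 15.5, 13.2 and 13.2 in the controls and 5.33, 4.92 and 4.58 with TGF-β1. No treated library came near the controls, and the log2 fall was -1.44 ± 0.08 (edgeR adjusted p = 2.69e-07). With G-MDSC supernatant it stood at 6.38, 5.98 and 6.93, above every library of TGF-β1 alone, a rise of 0.35 ± 0.08 (edgeR adjusted p = 0.0296). With M-MDSC supernatant it stood at 5.83, 5.50 and 5.72, also above TGF-β1 alone, but the difference of 0.18 ± 0.08 did not pass (edgeR adjusted p = 0.303). The rise with G-MDSC supernatant gave back 16.4% of the FPKM lost with TGF-β1, and the values with M-MDSC supernatant 8.20%. The call with G-MDSC supernatant was lost when TGF-β1 replicate 2 (edgeR adjusted p = 0.0953) or 3 (0.104), or G-MDSC supernatant replicate 1 (0.0815) or 3 (0.0927), was left out, with a log2 difference for Pdgfra between 0.29 and 0.36 in these 4 fits. It was also lost with only these 2 groups in the fit (edgeR adjusted p = 0.0635).

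Pdgfrb, on the plus strand of chromosome 18, encodes receptor beta and had the highest level of the 7 genes in every group. It was 32.1, 32.9 and 32.0 in the controls and rose to 46.2, 44.2 and 43.6 with TGF-β1, by 0.52 ± 0.04 on the log2 scale (edgeR adjusted p = 5.90e-06). With M-MDSC supernatant it was 40.6, 38.0 and 36.5, and with that of G-MDSCs 34.3, 33.2 and 35.0. The 4 groups did not overlap anywhere. Adding M-MDSC supernatant to TGF-β1 changed Pdgfrb by -0.24 ± 0.04 (edgeR adjusted p = 0.0104, or 0.0838 with only these 2 groups in the fit), and G-MDSC supernatant changed it by -0.41 ± 0.04 (edgeR adjusted p = 0.000269). The M-MDSC supernatant took back 51.0% of the FPKM gained with TGF-β1 and the G-MDSC supernatant 84.7%. With G-MDSC supernatant, Pdgfrb was 0.11 ± 0.04 above the controls, which did not pass the threshold (edgeR adjusted p = 0.0749), but did with DESeq2 (adjusted p = 0.0488) and without M-MDSC supernatant replicate 1 (edgeR adjusted p = 0.0406). Of 7 markers of perivascular cells, 2 were tested, Mcam and Cspg4. Mcam, an adhesion molecule, rose with TGF-β1 by 1.61 on the log2 scale and fell with the M-MDSC (-0.64) and G-MDSC supernatants (-0.75), and Cspg4 rose with TGF-β1 by 2.63, with values of -0.37 and -0.34 in the supernatant groups that did not pass (edgeR adjusted p = 0.239 and 0.286). Cspg4, with a control mean of 0.693 FPKM, entered the test through the treated groups. The summed FPKM of the 7 markers was 22.0 to 23.3 in the controls, 64.1 to 69.6 with TGF-β1, 44.0 to 45.1 with M-MDSC supernatant and 40.9 to 41.9 with that of G-MDSCs. Mcam alone made up most of that sum, whereas the pericyte genes Rgs5, Kcnj8 and Abcc9 had group means of at most 0.0561, 0.0313 and 0.00499. Of the 10 myofibroblast markers, 7 fell with M-MDSC supernatant, where 4.78% of all genes were called, and 9 with G-MDSC supernatant, where 5.56% were, and none rose. Among them were Acta2 (-0.44 and -0.51), Fn1, fibronectin (-0.39 and -0.40), and Postn, periostin (-0.82 and -1.02). Col1a1 passed with neither supernatant (-0.17 and -0.23, edgeR adjusted p = 0.182 and 0.0613). Ccn2 (-0.20) and Cnn1 (-0.59) did not pass with M-MDSC supernatant (edgeR adjusted p = 0.0647 and 0.0872). The part of the perivascular and myofibroblast markers in the Pdgfrb result was not tested. In bulk RNA, fewer cells of a type and less RNA per cell cannot be told apart.

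Pdgfrl, on the plus strand of chromosome 8 (chr8:40926212-40990785), encodes a receptor-like protein without a kinase domain. It stood at 11.5, 11.4 and 11.7 in the controls and at 8.35, 7.19 and 8.18 with TGF-β1, a log2 change of -0.49 ± 0.07 (edgeR adjusted p = 0.000194). With M-MDSC supernatant it was 7.59, 6.75 and 7.08, and with that of G-MDSCs 6.65, 6.65 and 6.90. Like Pdgfd, it lay further from the controls with the supernatants than without, by -0.17 ± 0.07 and -0.26 ± 0.07, neither of which passed (edgeR adjusted p = 0.220 and 0.0505). The second value lies at the threshold and passed with DESeq2 (adjusted p = 0.0146), without TGF-β1 replicate 2 (edgeR adjusted p = 0.0188) and without M-MDSC supernatant replicate 1 (edgeR adjusted p = 0.0429).

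**Figure D2:**
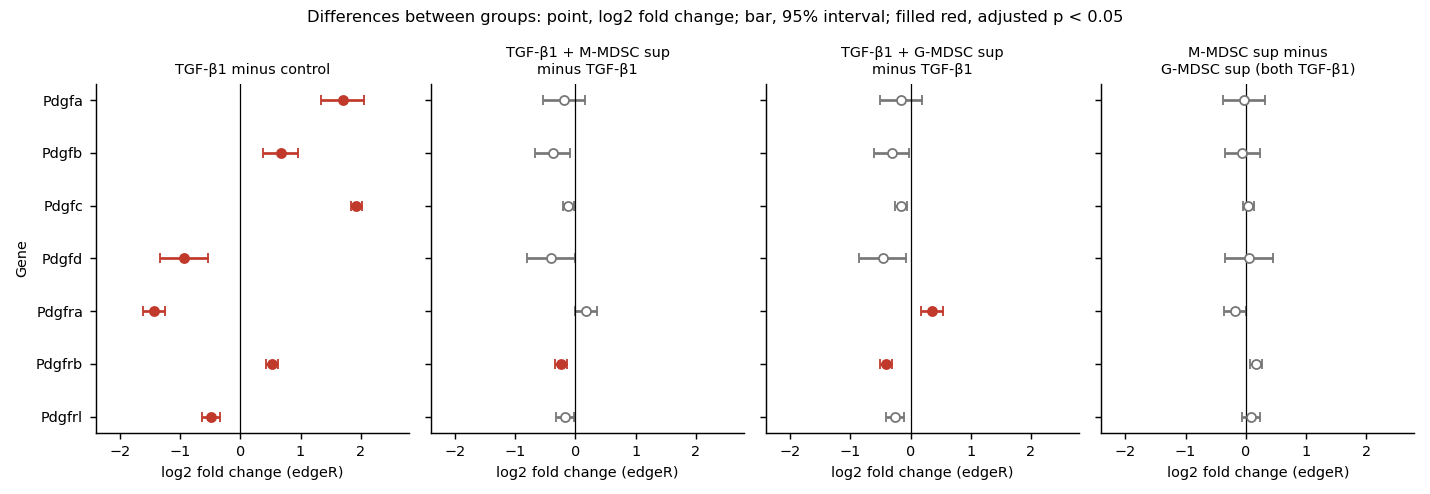
Log2 fold changes of the 7 PDGF genes from edgeR (x axis) in 4 comparisons (panels), with 95% intervals; filled red points have an adjusted p under 0.05. All 7 are filled for TGF-β1 against the controls, from -1.44 for Pdgfra to 1.93 for Pdgfc, 1 for the M-MDSC supernatant (Pdgfrb, -0.24), 2 for the G-MDSC supernatant (Pdgfrb, -0.41, and Pdgfra, 0.35) and none between the supernatants.

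In counts, 7 of the 7 PDGF genes were called between TGF-β1 and the controls, 4 higher and 3 lower, where 34% of all genes tested were called (16.1% higher and 17.9% lower), and the groups did not overlap for any of the 7, against 46.7% of all genes. By the study's rule, a fold above 2 or below 0.5 at an unadjusted p under 0.05, 3 were called (Pdgfa, Pdgfc and Pdgfra), where 6.74% of all genes were. A single call, Pdgfrb, was made between the M-MDSC supernatant group and TGF-β1 alone, where 4.78% of all genes were called, and 4 of the 7 did not overlap, against 24%. With the G-MDSC supernatant 2 were called, where 5.56% of all genes were, and 5 of the 7 did not overlap, against 22.7%. Both supernatant comparisons share the same 3 TGF-β1 libraries. The differences from TGF-β1 alone, M-MDSC first and G-MDSC second, were -0.19 and -0.16 for Pdgfa, -0.37 and -0.32 for Pdgfb, -0.12 and -0.16 for Pdgfc, -0.41 and -0.47 for Pdgfd, 0.18 and 0.35 for Pdgfra, -0.24 and -0.41 for Pdgfrb, and -0.17 and -0.26 for Pdgfrl.

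The supernatants were also compared directly with each other, both with TGF-β1. By edgeR, 0 of the 7 PDGF genes were called, where 0.125% of all genes were, and DESeq2 and limma called 0 as well. At an unadjusted p under 0.05 there was 1, against 6.33% of all genes. This was Pdgfrb, which was higher in the M-MDSC supernatant group by 0.17 on the log2 scale (95% interval 0.07 to 0.27, edgeR adjusted p = 0.344), without overlap of the libraries. Pdgfra was lower with M-MDSC supernatant by -0.17 (-0.35 to 0.01), also without overlap, and 12% of all genes did not overlap in this comparison. The intervals for the ligands were -0.38 to 0.32 for Pdgfa, -0.35 to 0.23 for Pdgfb, -0.05 to 0.14 for Pdgfc and -0.34 to 0.45 for Pdgfd, so that Pdgfc was bounded most closely. For Pdgfrl the interval was -0.06 to 0.24.

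Against the controls, 6 of the 7 genes were called with TGF-β1 and M-MDSC supernatant (35.2% of all genes) and 5 with TGF-β1 and G-MDSC supernatant (34.8%). Pdgfb did not pass in either and Pdgfrb not with the G-MDSC supernatant. Pdgfc remained 3.51-fold and 3.40-fold above the controls with the M-MDSC and G-MDSC supernatants, and Pdgfa 2.85-fold and 2.91-fold. Pdgfra remained 2.40-fold and 2.12-fold below.

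The order of the levels changed with TGF-β1. In the controls it ran Pdgfrb, Pdgfra, Pdgfrl, Pdgfc, Pdgfa, Pdgfd and Pdgfb, with no overlap between neighbours. In the 3 treated groups it ran Pdgfrb, Pdgfc, Pdgfa, Pdgfrl, Pdgfra, Pdgfb and Pdgfd, so that Pdgfra passed from above the ligands to below Pdgfc and Pdgfa, and only Pdgfrl and Pdgfra with G-MDSC supernatant overlapped as neighbours. The summed FPKM of the 4 ligands was 12.6 ± 1.07 (SD, n = 3) in the controls, 35.8 ± 1.48 with TGF-β1, 32.6 ± 1.60 with M-MDSC supernatant and 32.3 ± 1.20 with that of G-MDSCs. Pdgfc made up 46.0% ± 2.73 of it in the controls and 58.9% ± 3.35 with TGF-β1, and Pdgfd 15.5% ± 2.13 and 2.70% ± 0.158. The sum of Pdgfra and Pdgfrb moved much less, from 46.3 ± 1.24 to 49.6 ± 1.73 with TGF-β1, 44.0 ± 2.13 with M-MDSC supernatant and 40.6 ± 1.39 with that of G-MDSCs. Its makeup shifted. The ratio of Pdgfrb to Pdgfra FPKM was 2.33 ± 0.228 in the controls and 9.05 ± 0.427 with TGF-β1. With M-MDSC supernatant it was 6.75 ± 0.313, and with that of G-MDSCs 5.33 ± 0.256. The level of this ratio depends on the exon lengths behind FPKM. In control replicate 1 the counts were 15006 for Pdgfrb and 13287 for Pdgfra. The 4 groups did not overlap in this ratio, which is a description, with no test.

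**Figure D3:**
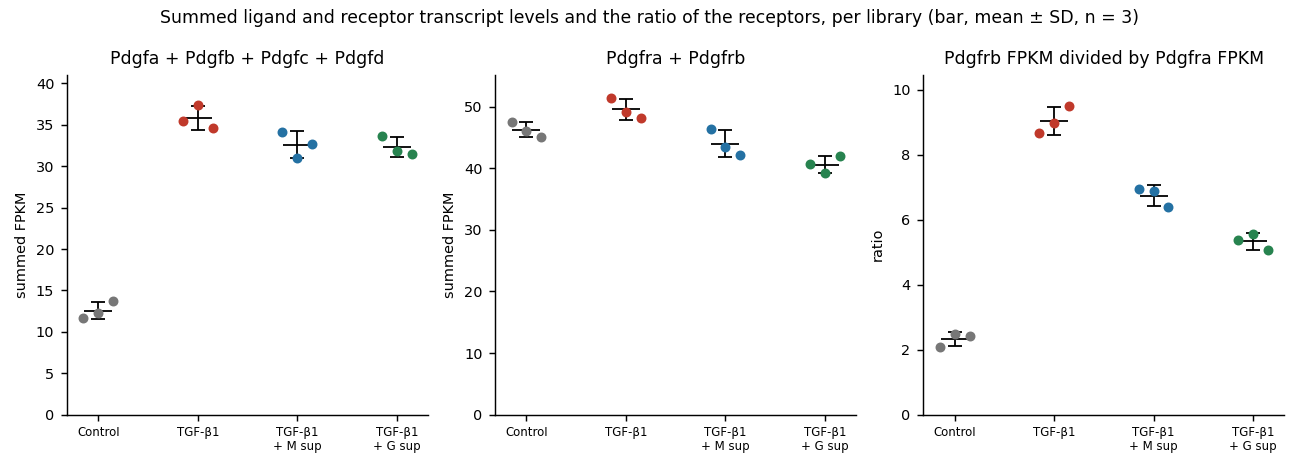
Summed FPKM of the 4 ligand genes (left), summed FPKM of Pdgfra and Pdgfrb (middle) and the ratio of Pdgfrb to Pdgfra (right) in each library (points), with the mean and SD of 3 libraries (bars) and axes from 0. The ligand sum separates the controls (11.7 to 13.7) from all treated libraries (31.0 to 37.5), and the ratio is highest with TGF-β1 alone (8.66 to 9.51) and lower with either supernatant (5.05 to 6.96).

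Genes that activate PDGFs or hold them outside the cell changed as well, and 6 of the 7 tested, from a list of 10, were called with TGF-β1, 3 in each direction, where 34% of all genes were called. Plat and Plau, the tissue and urokinase plasminogen activators that open PDGF-C and PDGF-D, fell (log2 changes of -0.85 and -1.43), with Plau going from 67.4 ± 3.17 to 24.1 ± 0.644 FPKM (SD, n = 3). Furin, which trims PDGF-A and PDGF-B, rose by 0.56, while the related convertase Pcsk6 fell (-1.49). Sparc, a matrix protein that binds PDGF-B, rose by 0.34, and Nrp1, a co-receptor of VEGF and PDGF, by 0.35. Sparc and Nrp1 were the 2 genes of this list called with either supernatant, where 4.78% (M-MDSC) and 5.56% (G-MDSC) of all genes were called. Sparc changed by -0.28 (M-MDSC) and -0.36 (G-MDSC), and Nrp1 by -0.53 and -0.51.

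Of 33 adaptors and effectors of the receptors, all tested, 7 rose and 7 fell with TGF-β1 (42.4% called, against 34% of all genes), with a median log2 change of 0.01. Among those that fell were Stat5a (-1.80), which encodes a STAT factor, and Pik3r1 (-1.38), which encodes the regulatory subunit of PI 3-kinase, and the adaptor gene Gab2 rose by 0.80. Map2k1, the ERK kinase MEK1, rose with TGF-β1 (0.41) and again with M-MDSC (0.44) and G-MDSC supernatant (0.37). Plcg1, phospholipase C gamma, fell with the M-MDSC (-0.33) and G-MDSC supernatants (-0.41). Stat3 (0.24) and Src (-0.18) were called with G-MDSC supernatant as well. Of 17 genes that brake the receptors, 15 were tested, and 5 rose and 4 fell with TGF-β1, against 34% of all genes called. The largest were Cblb, a ubiquitin ligase (1.53), Errfi1, an inhibitor of receptor kinases (-1.19), Spry4 (-0.42) and Rasa1, a Ras GTPase activator (0.40). With G-MDSC supernatant 1 brake was called, the adaptor gene Grb10 (-0.38), which is 6.67% of the 15 tested against 5.56% of all genes. With M-MDSC supernatant 0 brakes were called, against 4.78% of all genes.

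Of 17 genes that PDGF is known to induce in fibroblasts, 10 rose and 5 fell with TGF-β1, where 16.1% of all genes rose and 17.9% fell. Has2, hyaluronan synthase, rose by 3.01, and Egr2, an early growth response factor, by 2.10. Cxcl1 and Ccl2, chemokines for neutrophils and monocytes, fell (-2.42 and -2.30), as did Fos (-2.09) and Egr1 (-0.79). Junb changed by 1.52 and Fosb by 1.41, and Fosb reached an FPKM of 1 in no control library. The chemokines rose with both supernatants, Cxcl1 by 1.43 with M-MDSC and 2.58 with G-MDSC supernatant, and Ccl2 by 1.10 and 1.44, while Egr2 (-0.78 and -0.72) and Hbegf, an EGF receptor ligand (-0.31 and -0.37), fell. Other members of this list called with G-MDSC supernatant were Ier3 (0.47), Ptgs2 (0.30) and Fosl1 (0.26).

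Of 7 relatives among the class III receptor kinases and their ligands 4 were tested, and 1 rose and 2 fell with TGF-β1, against 34% of all genes called. Kitl (stem cell factor) changed by -2.27 and Csf1 (macrophage colony-stimulating factor) by -1.25 with TGF-β1, and Csf1r, the receptor of Csf1, rose by 0.76 at a mean of 1.03 FPKM. The receptor gene Kit had a mean of at most 0.00473 in any group. Of 5 VEGF family ligands, which share the cystine-knot fold with PDGFs, 4 were tested, and all 4 were called with TGF-β1, against 34% of all genes: Vegfa rose by 2.35 and Vegfc by 1.76, while Vegfd (-2.32) and Vegfb (-0.35) fell. Vegfc rose a further 0.39 with M-MDSC supernatant, while the value of 0.36 with G-MDSC supernatant missed the threshold (edgeR adjusted p = 0.0528). The libraries of the 2 supernatant groups, with means of 16.9 and 16.5 FPKM, overlapped. Over all 6 lists, 51 of the 80 tested genes were called with TGF-β1 (median log2 change 0.05, against 0.00 over all genes), 10 when M-MDSC supernatant was added and 15 when that of G-MDSCs was, which is 63.8%, 12.5% and 18.8% of the 80, against 34%, 4.78% and 5.56% of all genes. Of these 80, 7 reached an FPKM of 1 in no library of at least 1 group and so entered the test through the groups where they were high: Stat5a and Kitl (in the controls alone), Cblb, Fosb, Csf1r and Il34 (none in the controls) and Cxcl1 (none with TGF-β1 alone). Of the other 73, 45 were called with TGF-β1, 9 with M-MDSC and 14 with G-MDSC supernatant. Between the supernatants edgeR called 0 of the 80, with 9 at an unadjusted p under 0.05, where 6.33% of all genes were. DESeq2 called 3 (1.01% of all genes), among them Cxcl1 (-1.15 by edgeR, lower with M-MDSC supernatant) and Ccl2 (-0.34), and limma on log2(FPKM + 1) called 2, Cxcl1 and Ccl2 (0.325% of all genes).

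**Figure D4:**
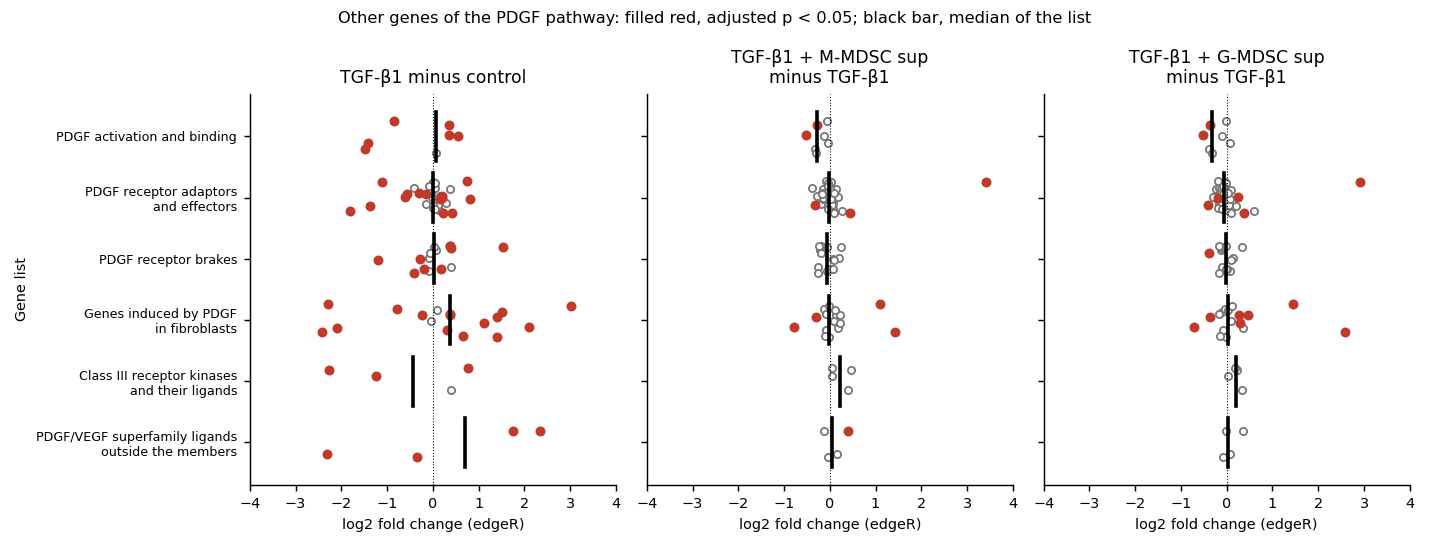
Log2 fold changes from edgeR (x axis) of the tested genes in 6 lists of the PDGF pathway (rows) in 3 comparisons (panels); filled red points have an adjusted p under 0.05, and black bars are the medians of the lists. With TGF-β1 the called genes spread from -2.42 (Cxcl1) to 3.01 (Has2), and with either supernatant most points lie near 0.

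For each PDGF gene, genes with a closely alike pattern were sought among 6897 genes with a mean FPKM of at least 5, by the root mean square difference of their 3 log2 fold changes against the controls. This is a description over the 3 treated groups. For Pdgfc they were Anxa8 (0.018), Tgfb1 (0.032), which encodes TGF-β1 itself, and Hes1 (0.059). For Pdgfa they were Gm47302 (0.044), Pmepa1 (0.051), a TGF-β-induced inhibitor of SMAD signaling, and Enpp1 (0.059). Pdgfra was nearest to Ptges (0.047), the prostaglandin E synthase, Prss22 (0.063) and Mustn1 (0.098), and Pdgfd to Layn (0.042), Ston1 (0.095) and Zcchc24 (0.12). Pdgfb was nearest to Tanc1 (0.036), Cyp51 (0.042) and Ankrd1 (0.050), Pdgfrb to Gm8250 (0.017), Brd3os (0.035) and Gm11826 (0.038), and Pdgfrl to Sec14l1 (0.016) and S100a10 (0.037).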

How the data were processed

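Poly(A) RNA of 12 MSC libraries, 4 groups of 3, was sequenced in pairs from dUTP-stranded libraries. The authors ran fastp on the reads, HISAT2 against GRCm38, and StringTie. The submitters' processing notes name cutadapt 1.9, HISAT2 2.0.4, StringTie 1.3.4d, edgeR and DESeq2. The authors deposited raw counts per gene and library, and FPKM values, with 0.0001 standing for a count of 0. The counting tool and its strand setting are not given in the sources used here.

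Counts were scaled by TMM and fitted in edgeR 4.0.16 (R 4.3.3) with all 12 libraries in a single quasi-likelihood fit, without covariates. The tests were two-sided, over 12016 genes with FPKM of at least 1 in 3 libraries, and p-values were adjusted by Benjamini-Hochberg over all of them. SEs come from that fit. Alternatives used other scalings and filters, DESeq2 1.42.0, limma 3.58.1 on log2(FPKM + 1) or log2(FPKM + 0.1), only the groups compared, a replicate block, counts divided by 4, and each library left out. The counts/4 fit was added because 44.3% of counts from 1 to 12 were multiples of 4. Libraries of a group differed by 61.9 to 85.3 times the counting variance, as a mean over genes, so counting error alone understates the spread. Tested on simulated data for TGF-β1 against the controls, with 12016 genes, edgeR recovered 78 of 100 genes changed 2-fold and 47 of 100 changed 1.5-fold, with 5 false calls. Only 200 genes were changed there, against 4082 called in the data, so these recoveries do not give the power in the data. The supernatant comparisons were not simulated.

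Named genes are the 7 PDGF genes, up to 4 called genes with the largest change per pathway list and comparison, 3 alike genes per member, Acta2, Col1a1 and Ccn2, and markers that move with a group. Fn1, Postn, Cnn1, S100a9, Ly6g, Ly6c2, Fos, Fosb, Junb, Egr1, Ptgs2, Fosl1, Src, Il34 and Kit lie outside this rule and were chosen after their values were seen. Some genes that this rule names are not reported here, though counts and medians over lists include them. The members and lists were chosen with earlier results of these data known. Promoter windows came from RefSeq (4 of 7 members matched).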

Additional observations from a re-analysis of the deposited data

How the results depend on the processing

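Over 954 values of the 42 log2 fold changes of the PDGF genes under alternatives, 935 kept their direction and their side of the threshold, 6 lost the call, 8 gained it and 5 changed sign. The sign changes were all between the supernatants, with a library left out, where no PDGF gene was called (ranges over libraries left out: Pdgfa -0.101 to 0.0773, Pdgfb -0.127 to 0.0521, Pdgfd -0.145 to 0.219). Pdgfrb against TGF-β1 alone kept its call with every library left out, for both supernatants.

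The count of PDGF members called for TGF-β1 against the controls was 7, and 3 (Pdgfa, Pdgfc and Pdgfra) by the study's rule (6.74% of all genes). That rule called 0 PDGF members for either supernatant against TGF-β1 (2.18% and 2.17% of all genes). With only the groups compared in the fit, 0 were called for the M-MDSC supernatant (2.92% of all genes) and 1 (Pdgfrb) for the G-MDSC supernatant (4.19% of all genes). DESeq2 called 4 for the G-MDSC supernatant, also Pdgfc and Pdgfrl (8.24% of all genes). Leaving out a library gave 1 to 3, where 455 to 685 of all genes were called. Of the PDGF pathway genes, the study's rule called 21 with TGF-β1 and 3 with each supernatant (among them Cxcl1 and Ccl2), against 51, 10 and 15. Between the supernatants, 0 PDGF pathway genes were called, but 3 with DESeq2, 2 with limma on log2(FPKM + 1), 1 with only the groups compared, 1 by the study's rule (Cxcl1), and 0 to 1 with a library left out. FPKM of at least 5 in 3 libraries gave no value for Pdgfb and Pdgfd.

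Libraries with the same replicate number did not deviate together (mean correlation -0.0044 over 18 pairs, 0.0023 over 36 pairs of different numbers). With a replicate block 7, 1, 2 and 0 PDGF members were called in the first 4 comparisons, as without it. The block changed no call of a PDGF member, and the PDGF pathway genes called were 51, 8, 13 and 0. Of all genes, 32.7%, 3.84%, 4.74% and 0.0666% were called with the block.

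Over all genes, 1929 rose and 2153 fell with TGF-β1, or 1481 and 2702 without scaling beyond the library total. Without that scaling the split was 376 to 187 with M-MDSC supernatant and 443 to 216 with G-MDSC supernatant, against 340 to 234 and 372 to 296. Between the supernatants 15 genes were called, 12 higher and 3 lower with M-MDSC supernatant, but 121 with DESeq2 and 41 with only the groups compared. With a library left out it was 9 to 47: 47 without M-MDSC supernatant replicate 3 (11 higher, 36 lower), 26 without control replicate 3, 23 without TGF-β1 replicate 1 and 9 without G-MDSC supernatant replicate 1. With a replicate block it was 8. The M-MDSC supernatant count fell from 574 to 355 without TGF-β1 replicate 2 (2.95% of all genes). Pdgfd had 154 to 560 counts per library and wide intervals, and how far depth limits single genes was not tested.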
